A study of Mus musculus with 28 samples.

Results

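The change of gene expression in rod photoreceptors between postnatal day 2 (P2) and postnatal day 6 (P6) was compared between rd1 and wild-type (WT) mice. For each gene the log2 change from P2 to P6 in WT was subtracted from the log2 change from P2 to P6 in rd1. A difference between the genotypes that is the same at both ages cancels in this difference of differences. A negative value means that the gene moved down in rd1 relative to WT, and a positive value that it moved up. Only genes on autosomes were considered. Of 41005 autosomal genes in the deposited table, 17830 had enough counts to be tested, out of 18608 genes tested on all chromosomes. The contrast drew on 11 libraries of the 28 in the series. There were 2 libraries each of P2 WT and P2 rd1, 4 of P6 WT and 3 of P6 rd1. P6 rd1 replicates 1 and 3 were averaged to 1 sample because their counts were nearly the same, which left 10 samples.

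The rd1 mice were homozygous for the rd1 allele of Pde6b and came from a cross to the WT line. Both lines carried a transgene with green fluorescent protein under the Nrl promoter, which is active in rods from soon after their last division, and the WT line carried this transgene alone. Retinas were dissociated with papain, and fluorescent cells were sorted at both ages. In the first postnatal week the mouse retina still holds dividing progenitor cells, and newly born rods begin to make the proteins of phototransduction before they grow outer segments. Pde6b encodes a catalytic subunit of the phosphodiesterase that lowers cGMP in rods when light is absorbed. Rods without a working enzyme accumulate cGMP and die, mostly in the weeks after birth.

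WT libraries held 12.3 to 13.6 M (mega) counts and rd1 libraries 15.98 to 20.8 M, so genotype and depth cannot be told apart, but the depths were alike at P2 and P6 within each genotype. The rod transcription factor gene Nrl ranged from 1575 to 2687 CPM (counts relative to the library total) over the 11 libraries. Between P6 rd1 replicates 1 and 3, chi-square divided by its degrees of freedom was 2.6. Among the other pairs of libraries within 1 group it ran from 20 to 106. P6 WT replicate 1 stood apart, with 25749 genes detected against 20980 to 22422 in the other 10 libraries. It also held 270 CPM of Fos, an immediate early gene, against 11.3 to 40.6 CPM in the other 3 P6 WT libraries. In 9 of the 11 libraries transcripts of both the inactive X and the Y chromosome were present, and the part of sex in the results was not tested. The labels do not say which libraries came from separate animals, so p-values measure only the spread between these samples.

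A single gene passed an adjusted p of 0.05 in the difference of differences. It was Mmp2, the gene of matrix metalloproteinase 2, a secreted enzyme that cuts collagens and other matrix proteins (ENSMUSG00000031740, chromosome 8, 92827328 to 92853417 on GRCm38). That is 0.00561% of the autosomal genes tested. Mmp2 moved toward WT: it was 3.00 ± 0.23 log2 units (SE) higher in rd1 than in WT at P2 and 1.00 ± 0.18 higher at P6.

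In P2 WT, Mmp2 stood at 10.7 and 13.4 CPM, and in P2 rd1 at 85.2 and 108 CPM. In P6 WT it stood at 24.3, 14.1, 21.9 and 23.2 CPM, and in P6 rd1 at 37.5 CPM in the averaged pair and 45.7 CPM in replicate 2. Every rd1 sample lay above every WT sample of its age, and the ranges at P6 were closer than at P2. From P2 to P6, Mmp2 rose in WT by a log2 fold change of 0.79 ± 0.20 (adjusted p = 0.0404) and fell in rd1 (-1.22 ± 0.21, adjusted p = 0.00213). The difference of differences was -2.01 ± 0.29 (95% interval -2.61 to -1.41, adjusted p = 0.0107). In the table of transcripts, 1 transcript of Mmp2 carried these counts, with group means of 11.5 CPM in P2 WT, 91.3 in P2 rd1, 19.9 in P6 WT and 39.0 in P6 rd1.

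The call for Mmp2 depended on single samples, while its size did not. The value lay between -2.18 and -1.82 in every alternative run. Without P2 WT replicate 1 the adjusted p was 0.133, without P2 rd1 replicate 2 it was 0.116, without the averaged P6 rd1 pair 0.149 and without P6 rd1 replicate 2 0.0509. It was 0.600 when the P2 and P6 samples were fitted alone and 0.0776 with limma-voom.

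Libraries of the other ages, which the contrast uses only to estimate the spread, gave a second value for Mmp2. At P4 it stood at 12.3 to 13.6 CPM in 3 WT samples and at 53.7 to 65.4 CPM in 2 rd1 samples. At P8 the 2 WT samples held 22.5 and 24.1 CPM and the 4 rd1 samples 24.5 to 34.3 CPM. At P10 the 4 WT samples held 22.4 to 24.2 CPM and the 2 rd1 samples 20.5 and 23.5 CPM. The groups were apart at P4 and P8 and overlapped at P10. The log2 fold change of rd1 over WT was 2.18, 0.31 and -0.09 at P4, P8 and P10. The same contrast between P4 and P10 gave -2.27 ± 0.27 (adjusted p = 0.000121). Its value lay between -2.40 and -2.12 in all 29 fits run. Some of these fits left out only P2 or P6 samples, which this contrast does not use, so they could hardly move it. The adjusted p was 1.9e-12 with DESeq2 and 9.13e-06 with limma-voom. This second contrast was added after the data were seen. In it 12 genes (0.0673%) were lower and 33 (0.185%) higher over all autosomal genes tested.

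**Figure D1:**
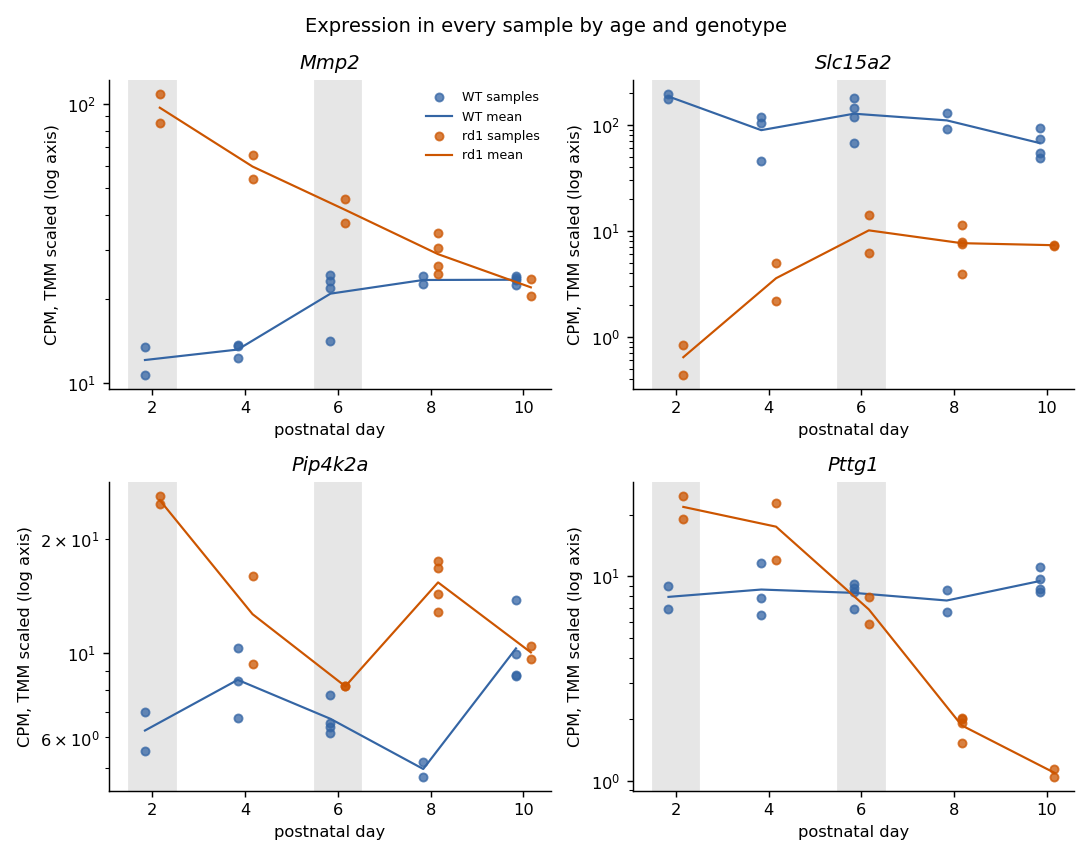
CPM of Mmp2, Slc15a2, Pip4k2a and Pttg1 (log axes) in each of the 27 samples against postnatal day, WT in blue and rd1 in orange, with lines through group means and grey bands at P2 and P6. In rd1, Mmp2 goes from 85.2 and 108 CPM at P2 to 20.5 and 23.5 CPM at P10, where WT holds 22.4 to 24.2 CPM, and Slc15a2 stays below WT at every age.

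The gene with the next smallest p was Slc15a2, which encodes a proton-coupled peptide transporter (chromosome 16, 36750178 to 36784962). It stood at 195 and 175 CPM in P2 WT and at 66.8, 143, 119 and 180 CPM in P6 WT. In rd1 it stood at 0.847 and 0.441 CPM at P2 and at 6.17 and 14.1 CPM at P6. It was low in all 4 rd1 samples, and less so at P6. Its log2 fold change of rd1 over WT was -8.16 ± 0.70 at P2 and -3.64 ± 0.51 at P6, so the difference of differences was 4.52 ± 0.78 (adjusted p = 0.069). It passed the threshold with DESeq2 (adjusted p = 3e-06), without a filter on low counts (6.34e-06) and without P6 WT replicate 4 (0.0418). It also passed when gene counts were summed from the deposited transcript counts, with a value of 5.93 ± 0.85 (adjusted p = 0.00525). It did not pass with limma-voom (adjusted p = 0.9998) or when the P2 and P6 samples were fitted alone (0.236). Over all 20 fits the value lay between 3.80 and 5.93.

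Myof, the gene of the membrane repair protein myoferlin, had the same pattern on a smaller scale. It stood at 16.2 and 20.4 CPM in P2 WT, 22.2 to 43.1 CPM in P6 WT, 0.953 and 0.588 CPM in P2 rd1, and 4.51 and 4.70 CPM in P6 rd1. Its difference of differences was 1.88 ± 0.51 (adjusted p = 0.865). In both genes the rd1 samples lay below all WT samples at P2 and at P6. Within rd1, both genes rose from P2 to P6, Slc15a2 by 3.98 ± 0.67 (adjusted p = 0.00168) and Myof by 2.57 ± 0.42 (adjusted p = 0.00151).

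Among genes with negative values, Pip4k2a, the gene of a phosphoinositide kinase, came next after Mmp2. It stood at 6.999 and 5.52 CPM in P2 WT, 6.16 to 7.79 CPM in P6 WT, 26.0 and 24.7 CPM in P2 rd1, and 8.19 and 8.18 CPM in P6 rd1. Only P2 rd1 stood clearly apart, and the difference of differences was -1.73 ± 0.36 (adjusted p = 0.389), and with DESeq2 the adjusted p was 0.0113. At P8 the genotypes were apart again, with rd1 at 12.8 to 17.5 CPM and WT at 4.73 and 5.18 CPM.

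Pttg1 encodes securin, the protein that inhibits separase until anaphase. In WT it stood between 6.94 and 9.15 CPM in all 6 samples of P2 and P6. In rd1 it stood at 24.7 and 18.9 CPM at P2 and at 5.88 and 7.90 CPM at P6. The groups were apart at P2 and overlapped at P6. Its difference of differences was -1.72 ± 0.40 (adjusted p = 0.689). At later ages the sign was opposite to P2, with rd1 samples at 1.54 to 2.03 CPM at P8 and 1.05 and 1.14 CPM at P10, below all WT samples (6.71 to 11.1 CPM). Between P4 and P10 the contrast was -4.11 ± 0.41 (adjusted p = 1.93e-05). It lay between -4.50 and -3.58 in all 29 fits run, some of which left out only P2 or P6 samples. The adjusted p was 3.98e-16 with DESeq2 and 7.65e-06 with limma-voom. In the transcript table the Pttg1 counts were split differently in the genotypes. Pttg1-008 had 15.4 CPM in P2 rd1 and 2.21 CPM in P2 WT, while Pttg1-001 had 0.819 and 4.54 CPM. With gene counts summed from the transcripts the difference of differences was -1.56 ± 0.40 (adjusted p = 0.914).

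Dscam, a cell adhesion gene of neurite spacing in the retina, was lower in rd1 at P6 (-0.86, adjusted p = 0.00611) and not at P2 (0.27, adjusted p = 0.558). It stood at 44.1 and 39.2 CPM in P2 WT, 64.6, 56.6, 72.3 and 74.6 CPM in P6 WT, 47.3 and 52.7 CPM in P2 rd1, and 41.3 and 32.4 CPM in P6 rd1. It rose in WT (log2 fold change 0.69, adjusted p = 0.0476) and had -0.44 in rd1 (adjusted p = 0.255), which gave a difference of differences of -1.13 ± 0.26 (adjusted p = 0.689). Pacsin1, an endocytosis adaptor gene of neurons, stood apart at P2 instead, with 113.7 and 84.0 CPM in P2 rd1 against 29.2 to 55.4 CPM in the other 8 samples (-1.43 ± 0.32, adjusted p = 0.689). Of the other genes with the smallest p, Arhgap29, a regulator of small GTPases, had 1.17 ± 0.29, Mettl23, a methyltransferase gene, 0.90 ± 0.25, and Dubr, a long noncoding RNA, 1.29 ± 0.40. None of these 3 passed. With summed transcript counts Arhgap29 had 0.78 ± 0.26 and Mettl23 0.45 ± 0.26.

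Pde6b itself was lower in rd1 at both ages, with a log2 fold change of rd1 over WT of -2.37 ± 0.37 at P2 and -1.67 ± 0.33 at P6. It stood at 467 and 705 CPM in P2 WT, 1162, 1617, 809 and 1426 CPM in P6 WT, 97.4 and 130 CPM in P2 rd1, and 422 and 364 CPM in P6 rd1. All rd1 samples lay below all WT samples of the same age. The difference of differences was 0.69 ± 0.46 (95% interval -0.26 to 1.64), which does not exclude equal change in both genotypes nor a 2-fold larger rise in rd1.

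Over all genes, the data set bounds on how far the genotypes could have moved apart. The median difference of differences was -0.01, and the middle 90% of values, from the 5th to the 95th percentile, lay between -1.58 and 0.86. The median SE was 0.45, and 0.28 for the 8577 genes whose mean log2 CPM reached 4. The 95% interval, taken gene by gene without adjustment, lay within 1 log2 unit either way, that is within 2-fold, for 6865 genes (38.5%). Among the 8577 better measured genes it did so for 6230 (72.6%). It lay wholly beyond 1 unit for 58 genes. Without adjustment, 242 genes (1.36%) were higher and 482 (2.7%) lower at p under 0.05. Of these 724 genes, 500 (69.1%) had a smaller genotype difference at P6 than at P2, as did 54.9% of all autosomal genes tested. The 724 genes were picked by p in the contrast of these same 2 differences, and WT had fewer samples at P2 than at P6. No conclusion is therefore drawn from this share. The count of genes past the adjusted threshold was 0 to 5 over the alternatives, with 5 from DESeq2. Of those 5, 2 predicted genes, 4930481A15Rik and Gm10557, were not among the genes above.

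Many more genes passed in each genotype's own change from P2 to P6 than in the difference between them. In WT 218 genes rose (1.22%) and 88 fell (0.494%). In rd1 391 rose (2.19%) and 386 fell (2.16%). These 2 contrasts share no samples. They had 193 genes in common, which is 63.1% of the 306 WT genes and 24.8% of the 777 rd1 genes, and 192 of the 193 had the same sign. Of the WT genes, 301 of 306 had the same sign in rd1. Of the rd1 genes, 754 of 777 had the same sign in WT. Of the 890 genes that passed in either genotype, 1 (Mmp2) passed in the difference of differences. A gene that passed in rd1 and not in WT is therefore not shown to differ between them. Across the 8577 better measured genes, which are not independent replicates, the 2 changes had a Pearson r of 0.61 and a Spearman coefficient of 0.628. Across all tested autosomal genes the Pearson r was 0.398.

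**Figure D2:**
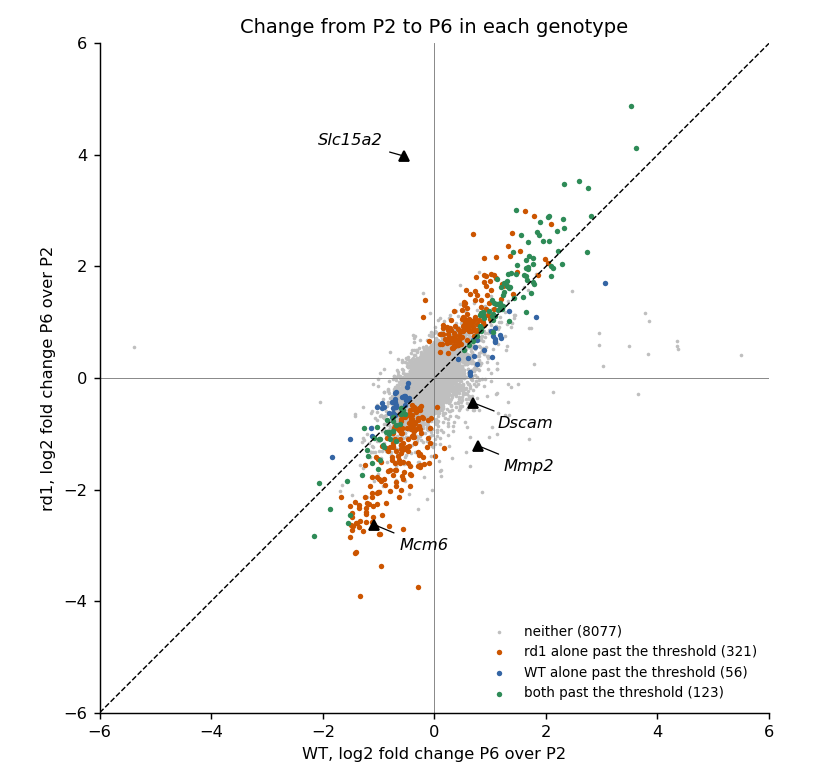
Log2 fold change of P6 over P2 in rd1 (y) against WT (x) for the 8577 autosomal genes whose mean log2 CPM reached 4, coloured by which genotype passed an adjusted p of 0.05 (9 genes lie outside the axes). Of these genes 123 passed in both genotypes, 321 in rd1 alone and 56 in WT alone, and most lie near the dashed line of equal change, while Mmp2 and Slc15a2 lie away from it.

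Cell cycle genes leaned to a negative difference of differences as a group. Theirs was the only 1 of 17 functional lists in which all tested genes had the same sign. The genes of a list were measured in the same 10 samples and are not independent observations. The proliferation list holds 30 genes of DNA replication and mitosis, all of them tested, and all 30 had a negative difference of differences, with a median of -1.10 against -0.01 for all genes. None passed the adjusted threshold, with edgeR or with any alternative run, and 8 of 30 were lower at an unadjusted p under 0.05 (2.7% of all genes were). In rd1, 27 of the 30 fell from P2 to P6 (2.16% of all genes did), with a median of -2.34. In WT none passed (0.494% of all genes fell), with a median of -1.08. The genotype difference had a median of 0.81 at P2, -0.03 at P4, -0.35 at P6, 0.40 at P8 and -0.06 at P10. It therefore did not move in 1 direction over the ages.

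The summed level of the list was 2762 and 1642 CPM in P2 WT, 4252 and 2909 CPM in P2 rd1, 1206, 789, 1606 and 718 CPM in P6 WT, and 679 and 1090 CPM in P6 rd1. Both P2 rd1 samples lay above both P2 WT samples, and at P6 the groups overlapped. Among the other markers of dividing cells, 17 of 18 retinal progenitor markers had a negative value, with a median of -0.59. Their summed level was 1243 and 1272 CPM in P2 WT, 2209 and 1689 CPM in P2 rd1, 867 to 1574 CPM in P6 WT, and 1320 and 1365 CPM in P6 rd1. The part of progenitor cells in the result was not tested. In bulk samples such as these, fewer cells of a type and less RNA per cell cannot be told apart.

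Tyms, the gene of thymidylate synthase, which makes the thymidine nucleotide for DNA, had the smallest p of the list in the gene table. It stood there at 53.7 and 34.2 CPM in P2 WT, 34.4, 39.1, 38.1 and 33.5 CPM in P6 WT, 65.6 and 66.6 CPM in P2 rd1, and 23.3 and 27.4 CPM in P6 rd1. The rd1 samples were above all WT samples at P2 and below them at P6, which gave a difference of differences of -1.11 ± 0.26 (adjusted p = 0.689). The transcript table did not give this pattern. Summed over its transcripts, Tyms stood at 65.4 and 39.5 CPM in P2 WT and at 43.4 and 38.1 CPM in P2 rd1, so the groups overlapped at P2, and the difference of differences was -0.24 ± 0.26 (adjusted p = 1). The protein-coding transcript Tyms-001 had means of 36.7 CPM in P2 WT and 23.3 CPM in P2 rd1, and Tyms-010, a short transcript marked for decay, 0.0403 and 4.84 CPM. The deposited gene counts are therefore not plain sums of the transcript counts, although the library totals of both tables are equal. Over all autosomal genes tested, 5.56% moved by more than 0.5 log2 units when sums were used. The median of the proliferation list was -1.12 with sums, and all 30 values stayed negative.

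Mcm6 and Mcm5 encode subunits of the replicative helicase. Mcm6 stood at 77.8 and 41.7 CPM in P2 WT, 20.5 to 47.8 CPM in P6 WT, 130 and 85.0 CPM in P2 rd1, and 14.7 and 20.02 CPM in P6 rd1, with a difference of differences of -1.55 ± 0.57. Mcm5 had -1.53 ± 0.64, and Cdk1, the kinase that starts mitosis, -1.82 ± 0.87. Bub1b, a spindle checkpoint gene, differed from these at P2. It was at 70.2 and 47.7 CPM in P2 rd1, 84.3 and 70.8 CPM in P2 WT, 45.9 to 79.7 CPM in P6 WT, and 14.1 and 16.6 CPM in P6 rd1, and its difference of differences was -1.50 ± 0.63. None of these 4 genes passed the adjusted threshold. At P8 and P10 Bub1b had means of 43.0 and 34.6 CPM in WT and of 2.73 and 11.8 CPM in rd1. Mcm6 had means of 9.49 and 7.30 CPM in WT and of 10.5 and 6.13 CPM in rd1 at these ages. Bub1b thus did not follow Mcm6 at later ages either. Mcm7 (-0.20 ± 0.28) had the value nearest to zero in the list.

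The median of the list moved with single samples but kept its sign in all alternatives. It was -0.75 without the averaged P6 rd1 pair, -0.76 without P6 WT replicate 3, -0.78 without P2 WT replicate 2, -0.80 without P2 rd1 replicate 1 and -1.64 without P6 rd1 replicate 2. The number of genes lower at an unadjusted p under 0.05 went from 1 to 16.

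**Figure D3:**
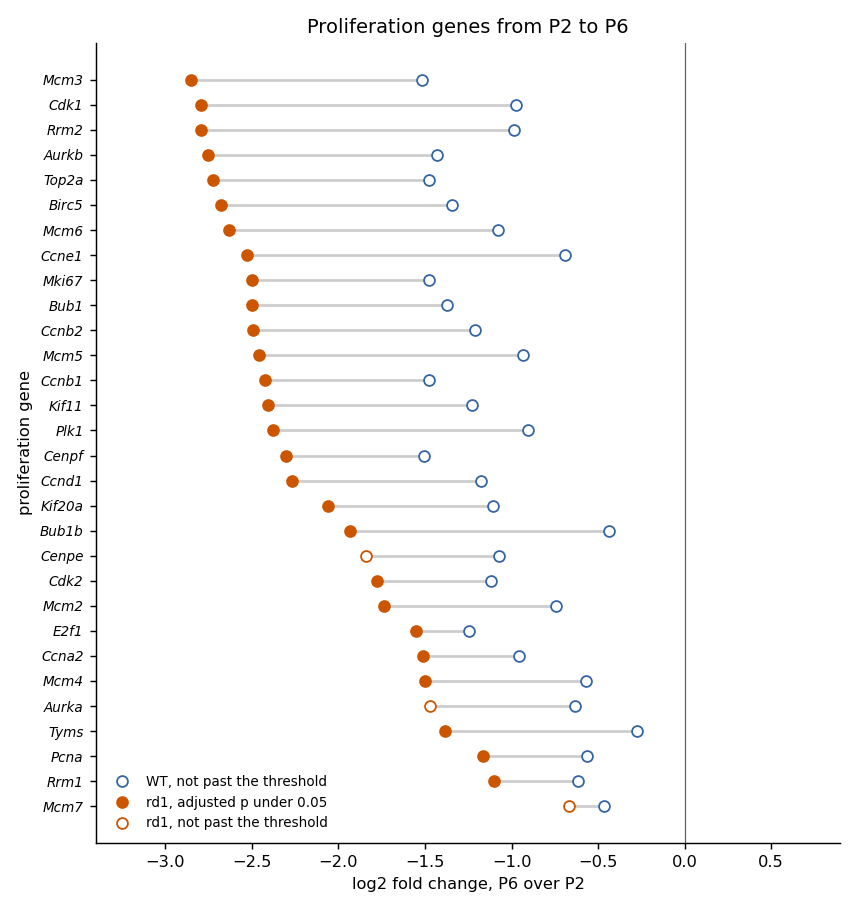
Log2 fold change of P6 over P2 for the 30 proliferation genes in WT (blue) and rd1 (orange), filled where the adjusted p was under 0.05. All 30 rd1 points lie left of the WT point of the same gene, 27 of the rd1 points are filled and none of the WT points is.

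Promoters of these genes were searched for short sequences that were not used to choose them. RefSeq's table on GRCm38.p6 gave a promoter for 25 of the 30 proliferation genes and for 11945 autosomal genes tested. In the 250 bases before the start, both strands were searched for an E2F site (TTTGGCGC, TTTCCCGC or TTTCGCGC) and for a CCAAT box (CCAAT). E2F factors drive genes of DNA replication, and the CCAAT box binds NF-Y. An E2F site was in 5 of the 25 promoters (20%) and in 2.69% of all 11945. A CCAAT box was in 21 of 25 (84.0%) and in 35.4% of all. It was not particular to this list, since 13 of 14 cholesterol synthesis promoters (92.9%) and 6 of 16 rod phototransduction promoters (37.5%) held one. All 5 promoters with an E2F site (Cdk1, Cdk2, Mcm5, Mcm6 and Mcm7) also had a CCAAT box, as did most promoters of the list. Over all 11945 promoters, 321 had an E2F site and 138 (1.16%) had both motifs. Neither motif was found in the window of Tyms. The 250 bases before the start of 3 members are printed 5′ to 3′ on the strand of the gene, to show how the motifs lie near the start. Capitals mark E2F sites and CCAAT boxes on either strand, and overlapping E2F matches run together. Mcm6 lies on chromosome 1, 128359706 to 128359955 on the minus strand. Mcm5 lies on chromosome 8, 75109259 to 75109508 on the plus strand. Cdk1 lies on chromosome 10, 69352913 to 69353162 on the minus strand.
Mcm6: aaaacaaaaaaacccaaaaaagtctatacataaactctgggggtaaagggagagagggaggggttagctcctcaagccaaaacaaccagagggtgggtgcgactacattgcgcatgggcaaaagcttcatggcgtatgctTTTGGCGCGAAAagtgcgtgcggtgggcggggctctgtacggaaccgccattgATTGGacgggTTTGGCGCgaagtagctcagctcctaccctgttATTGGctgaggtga
Mcm5: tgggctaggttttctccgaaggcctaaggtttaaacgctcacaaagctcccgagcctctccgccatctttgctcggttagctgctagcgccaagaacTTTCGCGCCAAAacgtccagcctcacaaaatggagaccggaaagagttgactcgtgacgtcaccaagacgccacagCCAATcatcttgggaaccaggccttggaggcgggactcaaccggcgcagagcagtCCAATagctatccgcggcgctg
Cdk1: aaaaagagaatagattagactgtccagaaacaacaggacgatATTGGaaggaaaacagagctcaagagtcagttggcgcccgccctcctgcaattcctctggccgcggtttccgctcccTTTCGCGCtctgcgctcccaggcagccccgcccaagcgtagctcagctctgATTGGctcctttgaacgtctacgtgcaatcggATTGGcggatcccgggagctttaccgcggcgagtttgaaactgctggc
Mcm6 has 3 E2F matches and 2 CCAAT boxes, Mcm5 2 and 2, and Cdk1 1 and 3. These matches are descriptions of the letters only.

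Of the 24 genes of rod phototransduction tested, 10 rose from P2 to P6 in WT, with a median of 1.41 (1.22% of all genes rose). In rd1 18 of the 24 rose, with a median of 2.09 (2.19% of all genes rose). The difference of differences had a median of 0.34, and 21 of 24 were positive. None passed, and 1 was higher at an unadjusted p under 0.05 (1.36% of all genes were). The summed level was 4579 and 6599 CPM in P2 WT, 4108 and 4716 CPM in P2 rd1, 15065, 13915, 8541 and 14829 CPM in P6 WT, and 16750 and 13538 CPM in P6 rd1. The groups overlapped at both ages. P2 WT replicate 2 set the direction: without it the median was 0.01, with 12 of 24 positive.

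Abca4, the transporter that clears retinal from discs, was the 1 member with an unadjusted p under 0.05. It stood at 109 and 214 CPM in P2 WT, 270, 329, 206 and 398 CPM in P6 WT, 102 and 112 CPM in P2 rd1, and 524 and 427 CPM in P6 rd1. Its difference of differences was 1.25 ± 0.47. Grk1, a kinase that helps to end the light response, had 1.203 ± 0.63, while Gnat1, the transducin alpha subunit, had 0.06 ± 0.80 and Slc24a1, the rod calcium exchanger, -0.09 ± 0.96.

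A CRX site (TAATCC), the short sequence bound by the photoreceptor factor CRX, was searched in the same way. It was in 8 of the 16 rod phototransduction promoters in the table (50%), in 5.51% of all promoters and in none of the 25 proliferation promoters. The promoter of Abca4 (chromosome 3, 122044210 to 122044459, plus strand, GRCm38.p6, RefSeq) is printed as the member with the smallest p, with the 1 match, on the opposite strand, in capitals.
Abca4: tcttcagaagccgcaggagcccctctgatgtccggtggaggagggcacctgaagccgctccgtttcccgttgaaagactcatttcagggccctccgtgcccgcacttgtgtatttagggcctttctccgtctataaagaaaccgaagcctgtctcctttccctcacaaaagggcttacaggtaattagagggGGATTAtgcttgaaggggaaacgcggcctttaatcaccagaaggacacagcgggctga
The match starts 58 bases before the start of the gene.

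**Figure D4:**
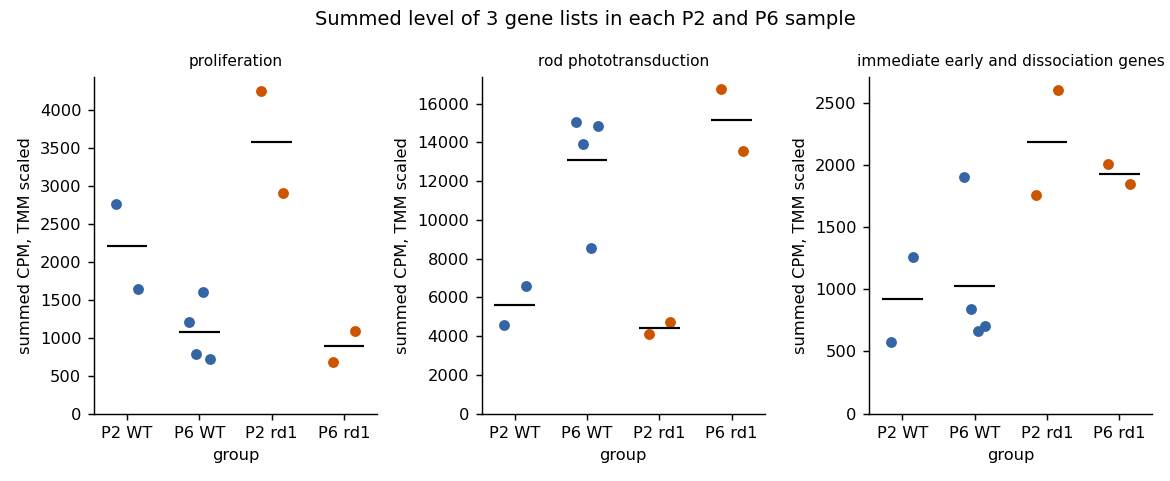
Summed CPM of the proliferation, rod phototransduction and immediate early gene lists in each of the 10 samples, by group, with group means as bars. Proliferation is highest in P2 rd1, phototransduction is higher at P6 than at P2 in both genotypes, and P6 WT replicate 1 (1904 CPM) is the high WT point for immediate early genes.

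Genes of cone photoreceptors, a marker list, leaned to negative values. Of 11 tested, 9 were negative, with a median of -0.82, and 4 were lower at an unadjusted p under 0.05 (2.7% of all genes were). None passed the adjusted threshold. Cnga3, a subunit of the cone cyclic nucleotide channel, stood at 10.8 and 7.09 CPM in P2 WT, 6.73 to 9.40 CPM in P6 WT, 20.6 and 34.5 CPM in P2 rd1, and 5.88 and 6.49 CPM in P6 rd1. Only the P2 rd1 samples stood above the rest, with a difference of differences of -1.94 ± 0.48 (adjusted p = 0.73).

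Pde6c, the cone phosphodiesterase, stood at 10.2 and 8.95 CPM in P2 WT, 18.6 to 34.7 CPM in P6 WT, 13.4 and 18.6 CPM in P2 rd1, and 8.61 and 15.04 CPM in P6 rd1 (-1.75 ± 0.59, adjusted p = 1). It was higher in rd1 at P2 and lower at P6, with no overlap at either age. Between P4 and P10 its contrast was -2.82 ± 0.57 (adjusted p = 0.0369). That call was lost with limma-voom (adjusted p = 0.0502), without any 1 of the P4 samples (0.0696 to 0.141), and without P10 WT replicate 2 (0.0662) or 4 (0.0701) or P10 rd1 replicate 1 (0.226) or 2 (0.321). Gnat2, cone transducin, had -1.90 ± 0.67 between P2 and P6. The genes named here are among the 9 negative ones, and 2 of the 11 were positive. The summed level of the cone list did not separate the groups. It was 1684 and 2045 CPM in P2 WT and 1011 to 1467 CPM in P6 WT. In rd1 it was 1477 and 2327 CPM at P2 and 1381 and 1485 CPM at P6. Its mean went from 1865 to 1211 CPM in WT and from 1902 to 1433 CPM in rd1. The sum thus fell less in rd1, unlike the lean of the single genes.

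Among genes of energy metabolism, the mitochondrial lists had the narrowest intervals. Of 48 nuclear genes of oxidative phosphorylation, which build the respiratory chain and ATP synthase, 40 were positive with a median of 0.19. The 95% interval lay within 2-fold for 46 of 48, against 38.5% of all genes and 72.6% of the better measured ones. It did so for 22 of 25 genes of mitochondrial dynamics and protein quality (median -0.01) and for 17 of 20 genes of the TCA cycle and pyruvate entry (median 0.14). The median of glycolysis and lactate genes was 0.21, and 13 of 26 had an interval within 2-fold. Pfkp, a phosphofructokinase, stood at 105 CPM in both P2 WT samples, 133 to 207 CPM in P6 WT, 49.6 and 25.1 CPM in P2 rd1, and 95.4 and 168 CPM in P6 rd1. Its difference of differences was 1.07 ± 0.47 (adjusted p = 1). Intervals were within 2-fold for 9 of 19 genes of fatty acid oxidation (median 0.21) and for 11 of 24 genes of serine, one-carbon and amino acid metabolism (median -0.01). No gene of these 6 lists passed in any alternative run, and the 2 with an unadjusted p under 0.05 were Pfkp and Slc16a3, a lactate transporter gene.

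Genes of cholesterol synthesis, which SREBP factors switch on when sterols are low, had a median of -0.38, with 15 of 20 negative. In rd1, 10 of 20 fell from P2 to P6 (2.16% of all genes did), and in WT 2 of 20 did (0.494%). None of the 20 passed in the difference of differences, and 2 were lower at an unadjusted p under 0.05 (2.7% of all genes were). The summed level was 1133 and 1161 CPM in P2 WT, 1378 and 1562 CPM in P2 rd1, 717 to 830 CPM in P6 WT, and 762 and 787 CPM in P6 rd1. Both P2 rd1 samples lay above both P2 WT samples, and the groups overlapped at P6. Insig1, which holds SREBP in the endoplasmic reticulum, had -0.84 ± 0.40. The list's median stayed between -0.51 and -0.29 in all alternatives.

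No stress or death gene passed in edgeR or in any alternative run. Without adjustment, 2 of 25 stress response genes were higher (1.36% of all genes were), 2 of 22 cell death genes were lower (2.7% of all genes were), and none of 25 oxidative stress genes had p under 0.05. For genes of the unfolded protein and integrated stress response the median was 0.11, with Pdia4, a chaperone of disulfide bonds, at 0.71 ± 0.27. Oxidative stress genes had a median of -0.06 and an interval within 2-fold for 18 of 25. Cell death and DNA damage genes had a median of -0.15. Genes of calcium handling and cGMP signalling had a median of -0.24. Of 27 outer segment and cilium genes 22 were positive, with a median of 0.28. The median was 0.11 for photoreceptor synapse genes, with 15 of 21 positive, and 0.09 for rod identity factors, with 9 of 15 positive.

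Immediate early and dissociation genes, which rise within minutes of cell handling, had the lowest median of all lists, -1.13, with 21 of 22 negative. That value moved with 1 library. Without P6 WT replicate 1 the median was -0.05, with 11 of 22 negative, and limma-voom with sample weights gave -0.09. The summed level was 1904 CPM in that library, 667 to 838 CPM in the other 3 P6 WT samples, 576 and 1259 CPM in P2 WT, 1759 and 2605 CPM in P2 rd1, and 2007 and 1847 CPM in P6 rd1. The rd1 samples were above the WT samples at both ages, except that P6 WT replicate 1 lay above 1 rd1 sample of P6.

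Markers of other retinal cells were present at P2 and P6, and none of their genes passed. The 17 amacrine and horizontal cell markers had a median of -1.12, with 14 negative. Their summed level was 1029 and 873 CPM in P2 WT, 904 and 651 CPM in P2 rd1, 722 to 1451 CPM in P6 WT, and 572 and 549 CPM in P6 rd1. Without P6 WT replicate 3, the sample with 1451 CPM, the median was -0.68. Of 13 bipolar cell markers, 8 rose in WT (1.22% of all genes did) and 6 in rd1 (2.19%), and their median difference of differences was 0.28. The median was 0.09 for Muller glia, -0.44 for retinal ganglion cells, -0.70 for microglia and macrophages, -0.39 for vessels and pericytes, and 0.50 for astrocytes. Retinal pigment epithelium and lens markers had -0.97, with 11 of 20 tested. For erythroid markers it was 4.20 over 5 genes, at summed levels of 0.335 to 29.9 CPM. The part of these cells in the results was not tested.

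**Figure D5:**
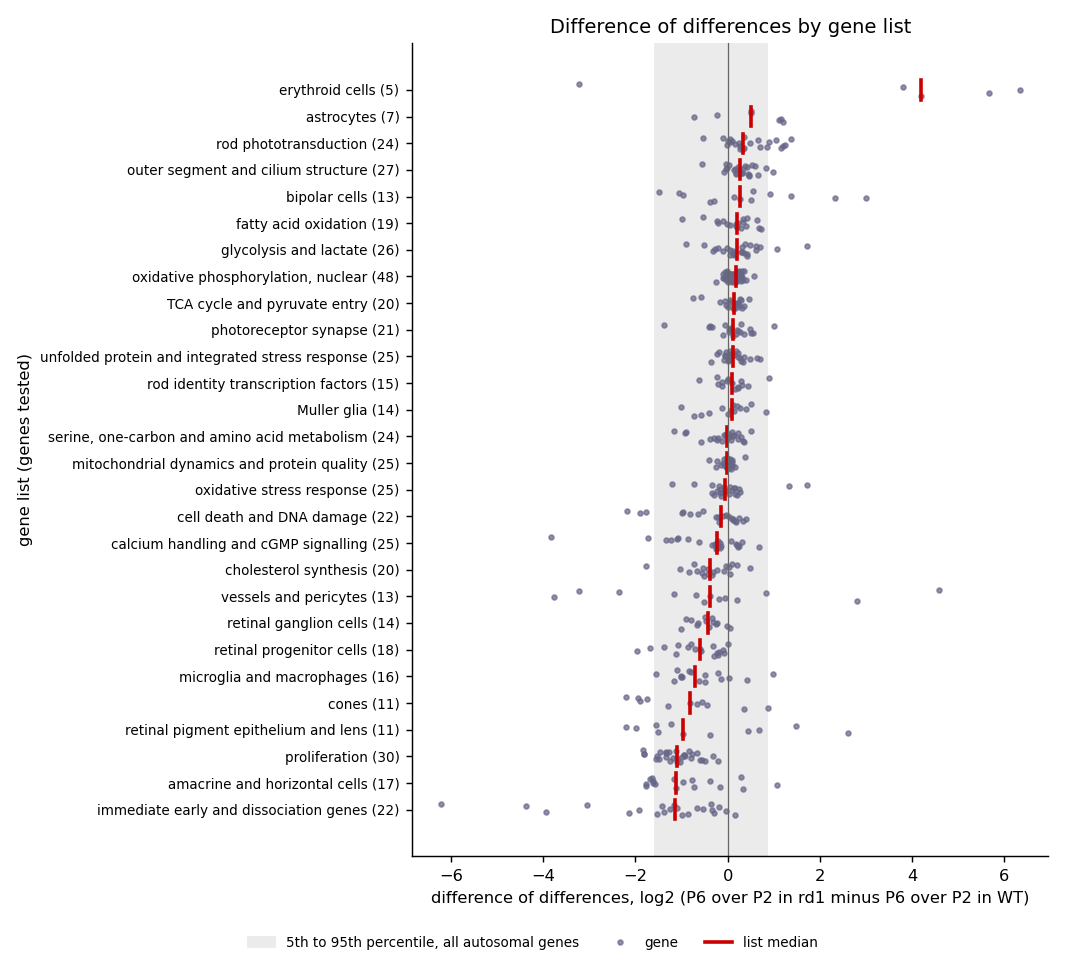
Difference of differences (log2) of each tested gene in the 28 gene lists, with list medians as red bars and the 5th to 95th percentile of all autosomal genes (-1.58 to 0.86) in grey. Proliferation genes lie wholly left of zero, oxidative phosphorylation genes cluster near zero, and erythroid and vessel markers spread widely.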

How the data were processed

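Rods sorted by flow cytometry were sequenced from a stranded mRNA kit, per the labels' protocols. Reads were quantified with kallisto 0.42.4, with edgeR 3.32.1 and build GRCm38.p5 also named, per the submitters' processing notes. The gene and transcript tables hold the authors' expected counts, as deposited, which were rounded here for tests. Of the columns in each, 1 matched no labelled sample and was left out.

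The members and gene lists were chosen with earlier results of these data known. In R 4.3.3, edgeR 4.0.16 fitted 1 mean for each of 10 groups of age and genotype in 27 samples (17 residual degrees of freedom), after filterByExpr on those groups and TMM scaling. Tests were two-sided quasi-likelihood tests, adjusted by Benjamini-Hochberg over 18608 genes, threshold 0.05. Printed CPM are TMM-scaled, except for transcripts, Nrl and Fos in the description of the libraries, which use library totals. SE is the absolute log2 fold change over the square root of F. Named genes were Pde6b, up to 10 genes past the threshold in each direction (or the 5 of smallest p, with mean log2 CPM of at least 1, leaving out predicted genes), and the 2 members of smallest p of each of 28 lists. Some genes that the rule names are not reported here. The other list members named were chosen after their values were seen. DESeq2 1.42.0, limma-voom (limma 3.58.1), other filters and scaling, fewer samples and left-out samples were the alternatives, with gene counts summed from the transcript table added after the data were seen. The fit was tested on simulated data.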

Additional observations from a re-analysis of the deposited data

Results flagged for a closer look

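Mmp2 differed between the genotypes in its change from P2 to P6 (-2.01 on the log2 scale) and from P4 to P10 (-2.27), each by the test of the difference itself. Pttg1 (-4.11) and Pde6c (-2.82) did so from P4 to P10. The call for Pde6c was lost with limma-voom (adjusted p = 0.0502) and when some single samples were left out. Slc15a2 (1.45 ± 0.65, adjusted p = 0.677) and Arhgap29 (-1.05 ± 0.27, adjusted p = 0.2) did not pass in that contrast. The sign for Arhgap29 was opposite to that between P2 and P6. P6 WT was the 1 group of 4 samples among those compared, and in it 5 of 65 genes and 3 of 28 lists had a sample far from the other 3 by Dixon's criterion. Chance alone flags about 1 in 20 such groups. Replicate 1 was high for Rax (283 CPM), Junb (44.4 CPM) and Hes5 (71.6 CPM), for the summed oxidative stress list (2610 CPM) and for the summed immediate early list (1904 CPM). Replicate 3 was high for Mcm6 (47.8 CPM) and the summed retinal ganglion cell list (381 CPM). In replicate 3, Crybb3 stood at 1.57 CPM, also far from the rest.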

How the results depend on the processing

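The count of autosomal genes past the threshold, 1 in the reported fit (724 at an unadjusted p under 0.05), was 0 with the P2 and P6 samples alone (566 unadjusted), 0 with limma-voom (586), 2 without a filter on low counts (1222), 2 with gene counts summed from the transcript counts (696) and 5 with DESeq2 (794). With each sample left out in turn it ranged from 0 to 2 (435 to 1203 unadjusted), and it was 1 under the other alternatives. With a replicate block of age and number it was 0 (460 unadjusted), and Mmp2 had -1.84 (adjusted p = 1). In 9 rd1 and WT pairs that share age and number, residuals correlated at -0.31 to 0.192, above 0.1 in 4 pairs of P2 and P4 and not in the other 5. The 2 pairs of P2 have the same value by construction, since both groups there hold 2 samples. The labels tie the numbers to no shared animal or day, so they were not taken to pair the samples. The block was not fitted for the contrast between P4 and P10. The sign reversed for 2 named genes, Mt2 (-1.68) and Hba-a2 (-1.47), both without P2 WT replicate 2. With a sample left out these genes ran up to 4.35 and 8.47. The causes were not tested. Of the 66 named genes Mmp2 alone was past the threshold, and it lost its call in 7 alternatives. Slc15a2 passed in 4 and Pip4k2a in 1, and no other named gene passed in any. With 2 samples in 3 of the 4 groups, a fit with 1 left out assumes that the lone sample varies like the other groups. Intervals were within 2-fold for 38.5% of genes, and for 72.6% of those whose mean log2 CPM reached 4.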
